A study of Homo sapiens with 48 samples.

Results

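PSN1 is an established human pancreatic cancer cell line. The comparison described here is between PSN1 cells that had acquired resistance to Talazoparib and were then cultured in drug-free media (TalaR-DF, 3 libraries) and the parental PSN1 cells they came from (3 libraries), all profiled by RNAseq. Talazoparib is an inhibitor of PARP, the enzymes that mark DNA breaks with chains of ADP-ribose. The TalaR cells were selected over 4 months in rising Talazoparib, and another group, TalaR-M (3 libraries), had stayed in 50 nM Talazoparib. TalaR-DF cells had been without drug for several weeks, and parental cells never had it. The paper reports that PSN1 TalaR cells without drug returned almost to the Talazoparib sensitivity of parental cells. For TalaR-DF, resistant thus names the origin of the cells here. Parental cells are wild type by label, and the labels give TalaR-M or TalaR-DF as the genotype of the resistant cells. SMAD4, the TGF-beta signal mediator that PSN1 lacks, was at 0 in all 6 libraries compared here. The resistant cells are 1 selected population, so the comparison holds for that population, and nothing says that the replicates were separate cultures, so that p-values measure the spread between these libraries only. Of the 20241 genes in the deposited table, 12165 were above 0 in at least 3 of the 6 libraries and were tested, 404 were above 0 in 1 or 2 libraries only, and 7672 were at 0 in all 6. A value is a log2 CPM, a gene's reads scaled to the size of its library and put on a log2 scale, and 0 stands for at most about 1 CPM, the worth of 11.7 to 13.6 reads in these libraries.

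Withdrawal of a PARP inhibitor removes the block on the enzyme within a short time, while expression differences that came with selection can stay in the descendants. The kinds of program are useful to keep apart here as background. Proliferation genes follow the cell cycle and are switched together by E2F factors before replication and by the DREAM and MuvB complexes before mitosis. Matrix, adhesion, cytokine and hypoxia genes instead report how cells build and sense their surroundings.

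Without drug, 1417 genes, 11.6% of those tested, differed from parental cells by 2-fold or more with a limma adjusted p under 0.05. Of these, 1076 were lower in TalaR-DF (8.85%) and 341 were higher (2.8%). Counts of called list members below are to be read beside these shares. This comparison holds no TalaR-M library and so does not tell differences kept since selection from ones that came after withdrawal. The decreases were also the deeper ones, since 105 genes fell and 22 rose by at least 3 on the log2 scale. With no minimum fold, 4163 genes were higher (34.2%) and 3898 were lower (32%), so that the excess of decreases belongs to the large changes. The median difference over all genes tested was 0.02 on the log2 scale. A fall to 0 was more frequent than a rise from 0. Listed at 0 in all 3 TalaR-DF libraries and above 0 in all 3 parental libraries were 375 genes, 90 of them with a parental mean of at least 2 log2 CPM. The opposite pattern held for 100 genes, 18 of them with a TalaR-DF mean of at least 2. A gene of either kind passed the filter through 1 group only and could not come out alike in both, so these counts are a description. Replicates were close, with Pearson correlations over genes of at least 0.993 within either group and between 0.938 and 0.942 across groups, and reads on genes above 0 ranged from about 12213604 to 14168340 per library. TalaR-M replicate 2 stands apart from every other library, so each TalaR-M level below is given by library where it matters.

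**Figure D1:**
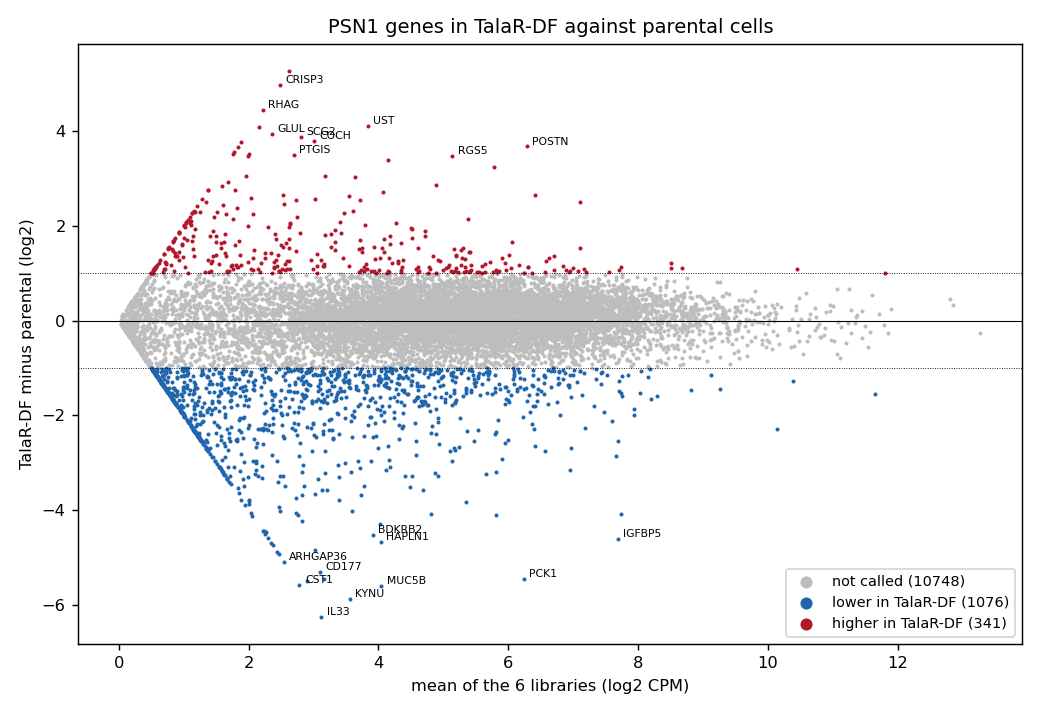
Difference between TalaR-DF and parental cells (log2, vertical axis) against the mean log2 CPM of the 6 libraries (horizontal axis), 1 point per tested gene. Red points are the 341 genes higher in TalaR-DF, blue points the 1076 lower, dotted lines mark a 2-fold change, and the slanted edges at the left are genes listed at 0 in 1 group. The blue cloud reaches further from 0 than the red one.

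The deepest decreases fell on secreted and surface proteins and on a pair of metabolic enzymes. KYNU, the kynureninase of tryptophan breakdown, stood at 6.51, 6.51 and 6.47 log2 CPM in parental cells and at 0.60, 1.13 and 0.14 in TalaR-DF, a 58.6-fold decrease (log2 -5.87, SE 0.19, limma adjusted p = 4.9e-10). MUC5B, a gel-forming mucin, went from 6.90, 6.86 and 6.77 to 0.79, 1.43 and 1.51. PCK1, which makes phosphoenolpyruvate in gluconeogenesis, dropped from 8.95, 8.94 and 8.99 to 3.49, 3.54 and 3.52, and was at 0 in all 3 TalaR-M libraries. The 3 groups therefore did not overlap for PCK1, and its level without drug lay between the others. IGFBP5, a binding protein of insulin-like growth factors, fell from 10.01, 9.95 and 10.00 to 5.48, 5.40 and 5.28 (log2 -4.60, SE 0.06, adjusted p = 2.4e-13). CD177, a surface glycoprotein best known from neutrophils, fell by 5.30 on the log2 scale, CEACAM1, an adhesion molecule, by 4.83, and HAPLN1, a linker of hyaluronan to proteoglycans, by 4.66. HAPLN1 was still at 5.63, 4.66 and 5.36 in TalaR-M, above each of its TalaR-DF values of 1.69, 1.92 and 1.51. BDKRB2, a bradykinin receptor, fell by 4.52 on the log2 scale. These 8 genes were taken from called genes whose parental and TalaR-DF libraries did not overlap, as was so for 70.2% of all genes tested.

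Among genes listed at 0 in every TalaR-DF library, IL33, an alarmin cytokine, had 6.26, 6.29 and 6.17 log2 CPM in parental cells and was at least 75.6-fold lower in TalaR-DF against the 1 CPM floor. CST1, a secreted cysteine protease inhibitor, had 5.77, 5.46 and 5.47 in parental cells. ARHGAP36, known as a modulator of hedgehog signalling, had 5.11, 5.11 and 5.03. TRABD2B, NDUFA4L2 and LRRTM4 had parental means of 4.92, 4.89 and 4.74. NDUFA4L2 is a hypoxia-responsive mitochondrial protein and LRRTM4 a synaptic adhesion protein. Each of the 6 genes except CST1 was also at 0 in all 3 TalaR-M libraries, and CST1 stood there at 0.43, 1.22 and 0.44.

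The largest increases also took in matrix and secreted proteins and enzymes. UST, a sulfotransferase of dermatan and chondroitin sulfate, rose from 2.10, 1.56 and 1.70 log2 CPM to 5.88, 5.88 and 5.90 (log2 4.10, SE 0.13, adjusted p = 3.7e-10). GLUL, glutamine synthetase, rose from 0.38, 0.53 and 0.28 to 4.45, 4.25 and 4.30. In both, TalaR-M replicates 1 and 3 were at TalaR-DF levels, with 6.10 and 5.83 for UST and 4.53 and 4.37 for GLUL. POSTN, the matrix protein periostin, was highest without drug. It had 4.51, 4.33 and 4.51 in parental cells, 5.77, 3.44 and 5.61 in TalaR-M and 8.03, 8.06 and 8.27 in TalaR-DF (log2 3.67, SE 0.08, adjusted p = 1.9e-11 against parental). RGS5, a regulator of G protein signals, had the same order, with 3.43, 3.53 and 3.23 in parental cells and 6.85, 6.78 and 6.99 in TalaR-DF. SCG2, a neuroendocrine secretory granule protein, rose by 3.88 on the log2 scale, COCH, an extracellular protein of the inner ear, by 3.79, MATN2, a matrix adaptor, by 3.52 and PTGIS, prostacyclin synthase, by 3.50. For SCG2, MATN2 and PTGIS the TalaR-M libraries were higher still, at 6.40 to 7.64, 6.05 to 6.76 and 6.57 to 7.02.

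Several genes were above 0 in TalaR-DF and listed at 0 in all 3 parental libraries. CRISP3, a secreted cysteine-rich protein, reached 5.05, 4.82 and 5.05 log2 CPM, at least 31.4-fold above the 1 CPM floor. RHAG, an ammonium channel subunit of red cells, had 4.50, 4.45 and 4.36, and GRIA1, an AMPA receptor subunit, 3.60, 3.59 and 3.80. RHAG and GRIA1 were also at 0 in all 3 TalaR-M libraries, so that among these 9 libraries they were detected without drug and after selection only. SSTR1, a somatostatin receptor, and NUP210L, a nuclear pore protein of the testis, had TalaR-DF means of 3.56 and 3.51 and were present in TalaR-M, at 1.52 to 4.03 and 2.19 to 4.50. Of the 14 erythroid markers searched, 13 were at 0 in all 6 libraries, RHAG being the only one detected.

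**Figure D2:**
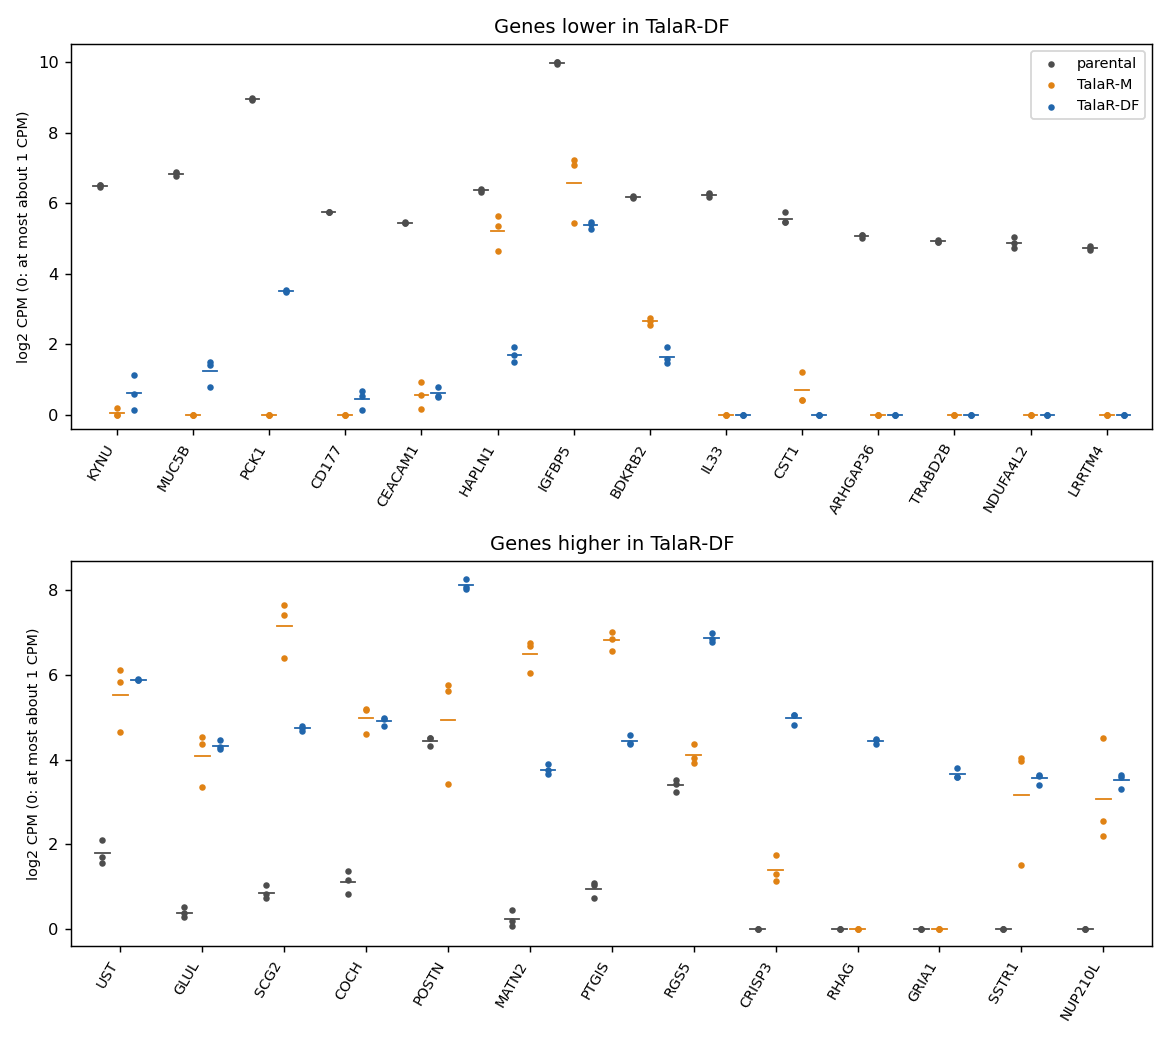
Level of each gene (log2 CPM, vertical axis) in every library of parental (grey), TalaR-M (orange) and TalaR-DF (blue) cells, with a short line at the group mean. The upper panel holds genes lower and the lower panel genes higher in TalaR-DF. PCK1, HAPLN1, POSTN and RGS5 differ between the orange and blue points, and RHAG and GRIA1 are above 0 in blue only.

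Matrix and adhesion genes were lower as a group. Of 24 tested collagen chains, 7 were lower and none was higher at 2-fold (16 and 4 at an adjusted p under 0.05 alone), with a median of -0.49 on the log2 scale. COL1A2, a chain of type I collagen, fell from 7.86, 7.86 and 7.88 log2 CPM to 3.90, 3.67 and 3.74 (log2 -4.09, SE 0.07, adjusted p = 3.4e-12), and its partner COL1A1 from 6.50, 6.45 and 6.55 to 3.67, 3.96 and 3.83. Their TalaR-M values went apart, since COL1A2 was at 0 in all 3 TalaR-M libraries and COL1A1 was at 8.13 to 8.67, above parental cells. COL3A1, the chain of type III collagen, was at 9.66 to 9.84 in TalaR-DF against 10.33 to 10.41, a log2 difference of -0.60 that is below 2-fold. Of the laminin chains, which build basement membranes, 3 of 9 were lower, among them LAMA5, by 1.46 on the log2 scale. Integrin subunits, the receptors of both, had 7 of 17 lower and none higher (15 and 1 without a minimum fold), with a median of -0.94. ITGA5, the fibronectin receptor subunit, dropped from 8.69, 8.60 and 8.68 to 6.65, 6.45 and 6.50. FN1, fibronectin itself, dropped from 12.44, 12.43 and 12.38 to 10.69, 11.08 and 10.85 (log2 -1.54, SE 0.10, adjusted p = 9.2e-08). TIMP1, an inhibitor of matrix metalloproteinases, fell by 2.29 on the log2 scale, 4.91-fold. Collagen crosslinking and hydroxylation enzymes had 3 of 18 lower, 16.7% called beside 11.6% of all genes tested. LOX, the lysyl oxidase, was lower by 1.53 on the log2 scale. The proteases of the ADAM and ADAMTS families split, with 3 higher and 7 lower of 19. ADAMTS12 rose by 3.23 and ADAM8 fell by 3.08.

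Mesenchymal and epithelial genes both held changes in either direction. Of 29 tested mesenchymal and contractile genes, 5 were higher (POSTN, CDH2, THBS1, VCAN and CYR61) and 9 lower, among them PDGFRB, FSTL1 and FN1. CDH2, N-cadherin, was at 0.13, 0.00 and 0.52 in parental cells and at 2.93, 3.25 and 3.21 in TalaR-DF (log2 2.91, SE 0.17, adjusted p = 4.7e-08). VIM, vimentin, differed by -0.37, under 2-fold. CDH1, E-cadherin, was at 0 in all 9 libraries, as was TWIST1. SNAI2, the EMT factor that the study followed, was at 0.59, 0.60 and 0.67 in parental cells and at 0 in all 3 TalaR-DF libraries, a log2 difference of -0.62 that is a bound set by the floor and was not called, whereas TalaR-M had 1.46, 0.18 and 1.36. ZEB2 was at 6.16, 6.10 and 6.09 in parental cells and at 5.05, 5.09 and 5.32 in TalaR-DF, and its log2 difference of -0.96 falls just short of 2-fold. ZEB1 differed by 0.37 and SNAI1 by -0.34. In the whole list of EMT transcription factors 3 of 10 tested were lower and none higher, and at an adjusted p under 0.05 alone 7 were lower and 3 higher. PRRX1 and PRRX2, paired-related homeobox factors, and FOXC1, a forkhead factor, were the 3 lower, and FOXC1 went from 5.37, 5.43 and 5.43 to 4.32, 4.41 and 4.27. Among the 7 members above 0 in all 6 libraries, only 1 was lower and none higher, with a median of -0.34. Of 24 tested epithelial adhesion and polarity genes, 10 were lower and 2 higher. ESRP2, an epithelial splicing factor, fell from 4.59, 4.51 and 4.71 to 0.79, 0.81 and 0.98, and the junction proteins JUP, plakoglobin, and DSP, desmoplakin, fell by 2.75 and 2.32. Desmosomal DSG2 and PKP2 rose instead, DSG2 from 5.31, 5.17 and 5.23 to 6.84, 6.93 and 6.91. KRT8 and KRT18, the paired keratins of simple epithelia, differed by -0.01 and -0.07 with adjusted p of 0.89 and 0.33, and KRT19 and EPCAM were not called either. Of 12 ductal carcinoma markers 8 were tested and 3 were lower, MUC1, TFF1 and KRT7.

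Genes used as stem cell markers did not move together. ABCG2, a drug efflux pump, rose from 2.15, 2.39 and 2.47 log2 CPM to 4.62, 4.66 and 4.53 (log2 2.27, SE 0.11, adjusted p = 1.5e-08), and TSPAN8, a tetraspanin, rose by 1.83. PROM1, which encodes CD133, was at 0 in every parental and TalaR-DF library and at 3.65, 3.52 and 3.44 in TalaR-M. ALDH1A3 (0.93), CD44 (-0.44), SOX9 (-0.78) and MMP1 (-0.90) had log2 differences under 2-fold. In the whole list of 16 tested stem cell markers, 3 were higher and 4 lower. CXCR4, the receptor of the chemokine CXCL12, fell from a mean of 3.22 to 0.14, and MYC rose from 9.99, 9.84 and 9.86 to between 10.92 and 11.04 (log2 1.09, SE 0.07). ABCB1, the P-glycoprotein efflux pump, was at 0 in all 9 libraries.

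**Figure D3:**
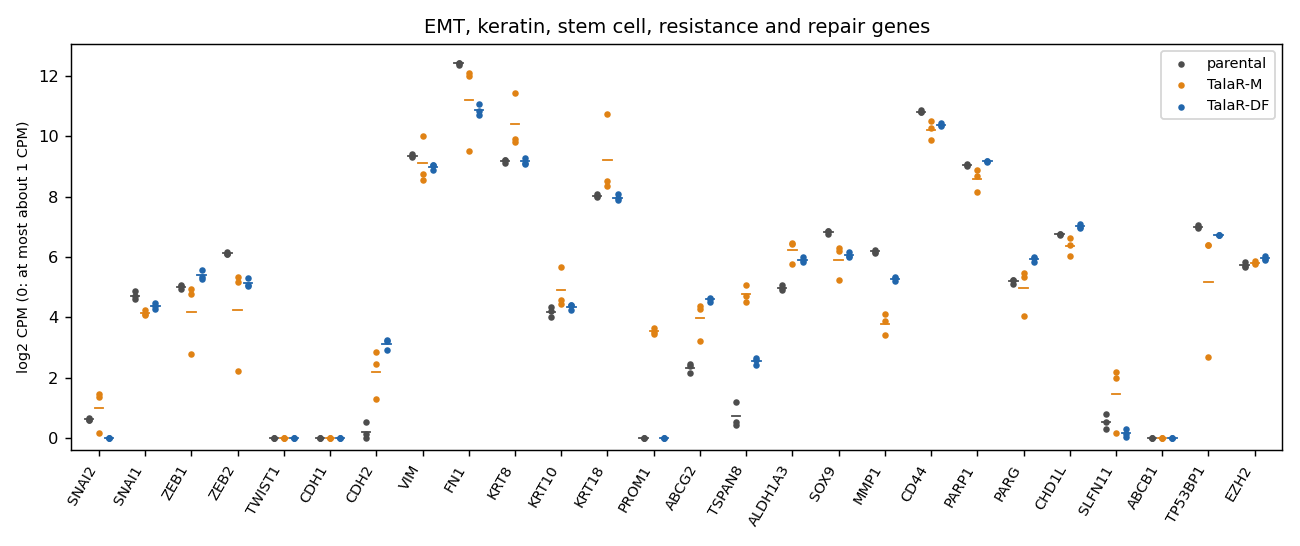
Level (log2 CPM, vertical axis) of genes that the study followed, in every parental (grey), TalaR-M (orange) and TalaR-DF (blue) library, with a line at each group mean. CDH2, ABCG2 and TSPAN8 are higher and FN1 is lower in TalaR-DF, PROM1 is above 0 in TalaR-M only, and the orange points spread wide because of replicate 2.

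Proliferation genes were higher by small amounts. Of 51 DNA replication genes, all tested, 46 were higher at an adjusted p under 0.05 and none was lower, beside 34.2% and 32% of all genes, and the median was 0.59 on the log2 scale. At 2-fold only 5 were called (GINS2, ORC6, POLE2, MCM10 and POLA2). GINS2, a subunit of the replicative helicase, rose from 3.57, 3.57 and 3.44 log2 CPM to 5.56, 5.34 and 5.55 (log2 1.96, SE 0.09, adjusted p = 6.9e-09). ORC6, of the origin recognition complex, rose from 4.71, 4.70 and 4.60 to 5.95, 5.93 and 6.05. PCNA and MCM2, the sliding clamp and a helicase subunit, differed by 0.65 and 0.63, which is the usual size in the list. Mitotic spindle and chromosome segregation genes had 54 of 58 higher and 1 lower at an adjusted p under 0.05, with a median of 0.57, and 3 past 2-fold. MKI67, the Ki-67 protein that coats mitotic chromosomes, rose from 8.02, 7.96 and 7.87 to 8.86, 9.19 and 9.10 (log2 1.10, SE 0.08). E2F8, a repressing E2F factor of S phase, rose by 2.54 and E2F2 was higher as well. The inhibitors of cyclin-dependent kinases CDKN1A and CDKN1C fell by 1.85 and 1.59, and CDKN2C, another inhibitor, rose from a mean of 0.51 to 2.40. More RNA per cell and more cells in S phase or mitosis cannot be told apart in such bulk libraries, nor, for lower genes, less RNA per cell and fewer cells of a kind.

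Promoter windows of these genes were searched for the letters known for their regulators. Windows from 250 bases before to 50 after the start were taken from RefSeq (GRCh38.p14), which held 9936 of the 12165 tested genes, and both strands were searched. E2F motifs (TTTCCCGC, TTTGGCGC, TTTCGCGC or TTTGCCGC) were in 43.2% of 44 DNA replication windows and in 5.35% of all tested windows. The cell cycle homology region (TTTGAA) was in 68.6% of 51 mitotic windows and in 9.5% of all. None of these strings contains another, and a match describes letters only. Over all called genes the E2F share was 4.56% among those higher and 2.03% among those lower. The windows of GINS2 (chr16:85688905-85689204, minus strand) and SKA3 (chr13:21176503-21176802, minus strand), a spindle protein that rose by 1.14, are printed to show 1 E2F match and 1 cell cycle homology match, in capitals.
GINS2: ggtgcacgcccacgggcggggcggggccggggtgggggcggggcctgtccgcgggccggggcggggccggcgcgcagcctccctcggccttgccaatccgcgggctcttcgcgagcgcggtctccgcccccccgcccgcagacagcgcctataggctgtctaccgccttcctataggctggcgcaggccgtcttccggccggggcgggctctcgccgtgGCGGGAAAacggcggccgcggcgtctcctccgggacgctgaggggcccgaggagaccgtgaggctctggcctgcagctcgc
SKA3: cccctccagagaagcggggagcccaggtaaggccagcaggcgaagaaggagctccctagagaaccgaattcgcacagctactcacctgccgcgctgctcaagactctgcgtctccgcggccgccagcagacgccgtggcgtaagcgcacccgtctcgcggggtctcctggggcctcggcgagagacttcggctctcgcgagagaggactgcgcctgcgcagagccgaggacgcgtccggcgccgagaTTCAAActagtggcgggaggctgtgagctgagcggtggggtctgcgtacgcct

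DNA repair genes were higher by similar amounts. Of 46 homologous recombination and Fanconi anemia genes tested, 36 were higher and none lower at an adjusted p under 0.05, with a median of 0.49. Past 2-fold were FANCA, DNA2, BRCA2, RAD54B and FANCM, 5 of 46. BRCA2, a mediator of strand exchange in recombination, had 3.85, 3.84 and 3.76 log2 CPM in parental cells and 4.59, 5.05 and 5.02 in TalaR-DF (log2 1.07, SE 0.12, adjusted p = 9.7e-06). FANCA, of the Fanconi core complex, had 3.76, 3.68 and 3.78 in parental cells and 4.99, 5.25 and 4.81 in TalaR-DF. BRCA1 differed by 0.57. Loss of 53BP1 or shieldin, which hold back end resection, is a known route to PARP inhibitor resistance in BRCA1-deficient cells. The paper describes PSN1 cells as proficient in the BRCA genes and reports that their sensitivity almost returned without drug. Whether this route has a part in these cells was not tested. Of 27 genes of 53BP1, shieldin and end joining, 17 were higher and 4 lower at an adjusted p under 0.05, with a median of 0.34. At 2-fold 1 was higher and 1 lower, 7.41% called, below the 11.6% of all genes tested. TP53BP1, which encodes 53BP1, was at 6.96 to 7.06 in parental cells and at 6.74, 6.74 and 6.72 in TalaR-DF, a log2 difference of -0.27. The shieldin subunit gene SHLD1, listed under the older symbol C20orf196, fell from 3.87, 3.84 and 3.78 to 2.12, 1.77 and 2.51 (log2 -1.70, SE 0.16, adjusted p = 3.3e-06), and POLQ, of theta-mediated end joining, rose by 1.26. The PARP family and ADP-ribose turnover genes had 2 of 27 called (7.41%, beside 11.6% of all genes tested), MACROD2 and TIPARP, both higher. PARP1, the drug target, was at 9.08, 9.02 and 9.05 in parental cells and at 9.18, 9.16 and 9.19 in TalaR-DF, a log2 difference of 0.12 with adjusted p = 0.04. PARG, which removes ADP-ribose chains, differed by 0.73 and CHD1L by 0.26, both under 2-fold. SLFN11 was below 1 log2 CPM in all 6 libraries and differed by -0.38 with adjusted p = 0.076.

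Cytosolic chaperones held increases and no 2-fold decrease. Of 50 tested cytosolic chaperones 6 were higher and none was lower (32 and 4 without a minimum fold), with a median of 0.34. HSP90AA1 rose from 11.32, 11.30 and 11.31 log2 CPM to 12.28, 12.23 and 12.43, right at the 2-fold limit, and HSPH1 from 7.19, 7.18 and 7.17 to 8.28, 8.28 and 8.33. HSPA4L rose by 1.78 and HSPB8 by 1.78. HSPA1A and HSPA1B, near-identical copies whose reads cannot be split with certainty, rose by 1.44 and 1.38. The heat shock letters GAANNTTC, where N is any base, were in 23.9% of 46 chaperone windows and in 4.64% of all. The HSP90AA1 window taken here held no match. The HSPA1A window (chr6:31815293-31815592, plus strand) is printed with its 1 match in capitals.
HSPA1A: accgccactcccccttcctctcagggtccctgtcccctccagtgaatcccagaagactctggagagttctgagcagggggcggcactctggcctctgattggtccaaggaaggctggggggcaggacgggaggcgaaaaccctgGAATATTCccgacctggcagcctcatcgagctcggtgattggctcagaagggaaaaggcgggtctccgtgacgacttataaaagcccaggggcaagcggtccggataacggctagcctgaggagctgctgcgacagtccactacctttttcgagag

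Amino acid genes driven by ATF4 split, with 4 of 34 higher and 7 lower. SLC7A11, the cystine importer, rose from 3.42, 3.62 and 3.64 log2 CPM to 5.34, 5.66 and 5.47, and SLC7A5 and SLC3A2, which form the large neutral amino acid carrier, rose by 1.22 and 1.04. ASNS, asparagine synthetase, rose by 1.09. DDIT3 and DDIT4, stress-induced members of the same list, were lower. The unfolded protein response list had no member higher and 2 of 24 lower, CREB3L1 and CREB3L2. This was 8.33% called, below the 11.6% of all genes tested.

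Glucose use and hypoxia genes were lower. Of 46 tested, 13 fell and none rose at 2-fold, and 36 were lower and 4 higher at an adjusted p under 0.05, with a median of -0.50. ANGPTL4, a secreted lipase inhibitor, fell from 7.02, 6.95 and 7.03 log2 CPM to 4.80, 4.62 and 4.40 (log2 -2.39, SE 0.09, adjusted p = 1.3e-09), and ALDOC, an aldolase, from 6.08, 5.99 and 5.93 to 3.75, 3.55 and 3.58. The glucose transporters SLC2A1 and SLC2A3 fell by 1.17 and 1.79, VEGFA, the angiogenic growth factor, by 1.32, and CA9, carbonic anhydrase 9 of the cell surface, by 1.03. Nuclear-encoded respiratory chain genes had 1 of 81 called, NDUFA4L2, with a median of 0.06. The core letters of the hypoxia response element (ACGTG) were in 43.9% of 41 windows of the list and in 26.9% of all. The CA9 window held 1 match and is not printed. ALDOC (chr17:28576846-28577145, minus strand) had 3 matches, printed in capitals, of which a pair overlaps.
ALDOC: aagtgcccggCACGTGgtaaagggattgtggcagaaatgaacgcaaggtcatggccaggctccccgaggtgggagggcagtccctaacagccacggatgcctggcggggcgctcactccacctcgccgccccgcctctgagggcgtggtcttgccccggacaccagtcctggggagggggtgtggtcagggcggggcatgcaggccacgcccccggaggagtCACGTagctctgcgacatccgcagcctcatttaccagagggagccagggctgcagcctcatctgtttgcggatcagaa

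Growth factor and MAPK output genes held more decreases than increases. Of 31 tested FGF, PDGF and VEGF ligands and receptors, 13 were lower and 3 higher, with a median of -0.59. Among the 21 above 0 in all 6 libraries, 6 were lower and 2 higher, with a median of -0.28. PDGFB fell from 4.42, 4.40 and 4.47 log2 CPM to 0.79, 0.22 and 0.50, PDGFRB, its receptor, from 6.19, 6.06 and 6.19 to 3.02, 3.20 and 2.40, and KDR, a VEGF receptor, from 3.85, 3.82 and 3.99 to 0 in all 3. FGF2, PDGFD and NRP2 were the 3 higher. In the IGF system 7 of 16 were lower and 1, INSR, was higher. IGF2 fell from 9.14, 9.05 and 9.05 to 6.25, 6.18 and 6.28, and PAPPA, the protease that frees IGF from its binding proteins, by 2.95. MAPK output genes had 10 of 44 lower and 1 higher, MYC, with a median of -0.52. The phosphatases DUSP6 and DUSP4, induced by ERK activity and acting against it, fell by 1.86 and 1.40, and the early genes EGR3 and JUN by 1.43 and 1.24.

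Cytokine, complement and antigen presentation genes were lower as well. Of 46 tested chemokines, interleukins and their receptors, 20 were lower and 3 higher, with a median of -0.94. Among the 26 above 0 in all 6 libraries, 9 were lower and 2 higher, with a median of -0.93. A further 97 members were at 0 in all 6 libraries. IL1B fell from 4.61, 4.67 and 4.53 log2 CPM to 1.39, 1.03 and 0.92, IL18 by 1.80, and CXCL8 was at 2.37, 2.18 and 2.06 against 0.39, 0 and 0. Complement genes had 9 of 19 lower. C3, the central component, was at 6.86, 6.84 and 6.82 in parental cells, 6.79 to 6.95 in TalaR-M and 2.61, 2.77 and 2.92 in TalaR-DF (log2 -4.07, SE 0.09 against parental). Of these 9 libraries the 3 of TalaR-DF alone had low C3. MHC class II presentation had 7 of 14 lower and none higher (11 and 0 without a minimum fold). HLA-DQB1 fell by 3.27 and CD74, the invariant chain, from 8.24, 8.06 and 7.99 to 6.91, 6.62 and 6.76, while TalaR-M had 9.03 to 9.58. HLA genes are polymorphic paralogs, and how reads were shared among them is not given in the sources used here. Interferon-stimulated genes were less uniform, with 10 of 46 lower and 1 higher and a median of -0.22, and GBP2 fell by 2.60. The MHC class I presentation list had 4 of 27 lower and 1 higher, 18.5% called beside 11.6% of all genes tested. The 1 higher was CD274, which encodes PD-L1, an immune checkpoint ligand and not itself a part of presentation. All 5 tested mucins were lower, MUC6 from 5.88, 5.92 and 5.83 to 0, 1.17 and 0.14, as were 9 of 20 serpins and cystatins, with SERPINA1 down by 2.76. Of the serpins and cystatins 2 were higher, CST7 and SERPINB2. Among the 14 serpins and cystatins above 0 in all 6 libraries, 6 were lower and none higher. Only 3 of the mucins were above 0 in all 6 libraries.

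Markers of other cell types were checked beside these groups, because matrix, vessel and immune genes are also made by stroma. Leukocyte markers were at 0 in all 6 libraries for 9 of 12, PTPRC being above 0 in 1 or 2 libraries only, and the summed level of the list was 14.8 to 18.0 CPM in parental cells and 1.18 to 2.55 CPM in TalaR-DF, carried by CD14 and CSF1R. CD3E and MS4A1 were at 0. Of 10 endothelial markers 5 were at 0 throughout, VWF and CLDN5 among them, and the summed level fell from between 31.0 and 33.2 CPM to between 2.92 and 3.24, carried by KDR and PECAM1. Of 10 fibroblast markers, DCN, THY1, FAP and PDPN were at 0 in all 6 libraries, while the summed level fell from between 1795 and 1868 CPM to between 912.4 and 1028, most of it COL3A1. The part of other cells in the groups above was not tested beyond these values.

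**Figure D4:**
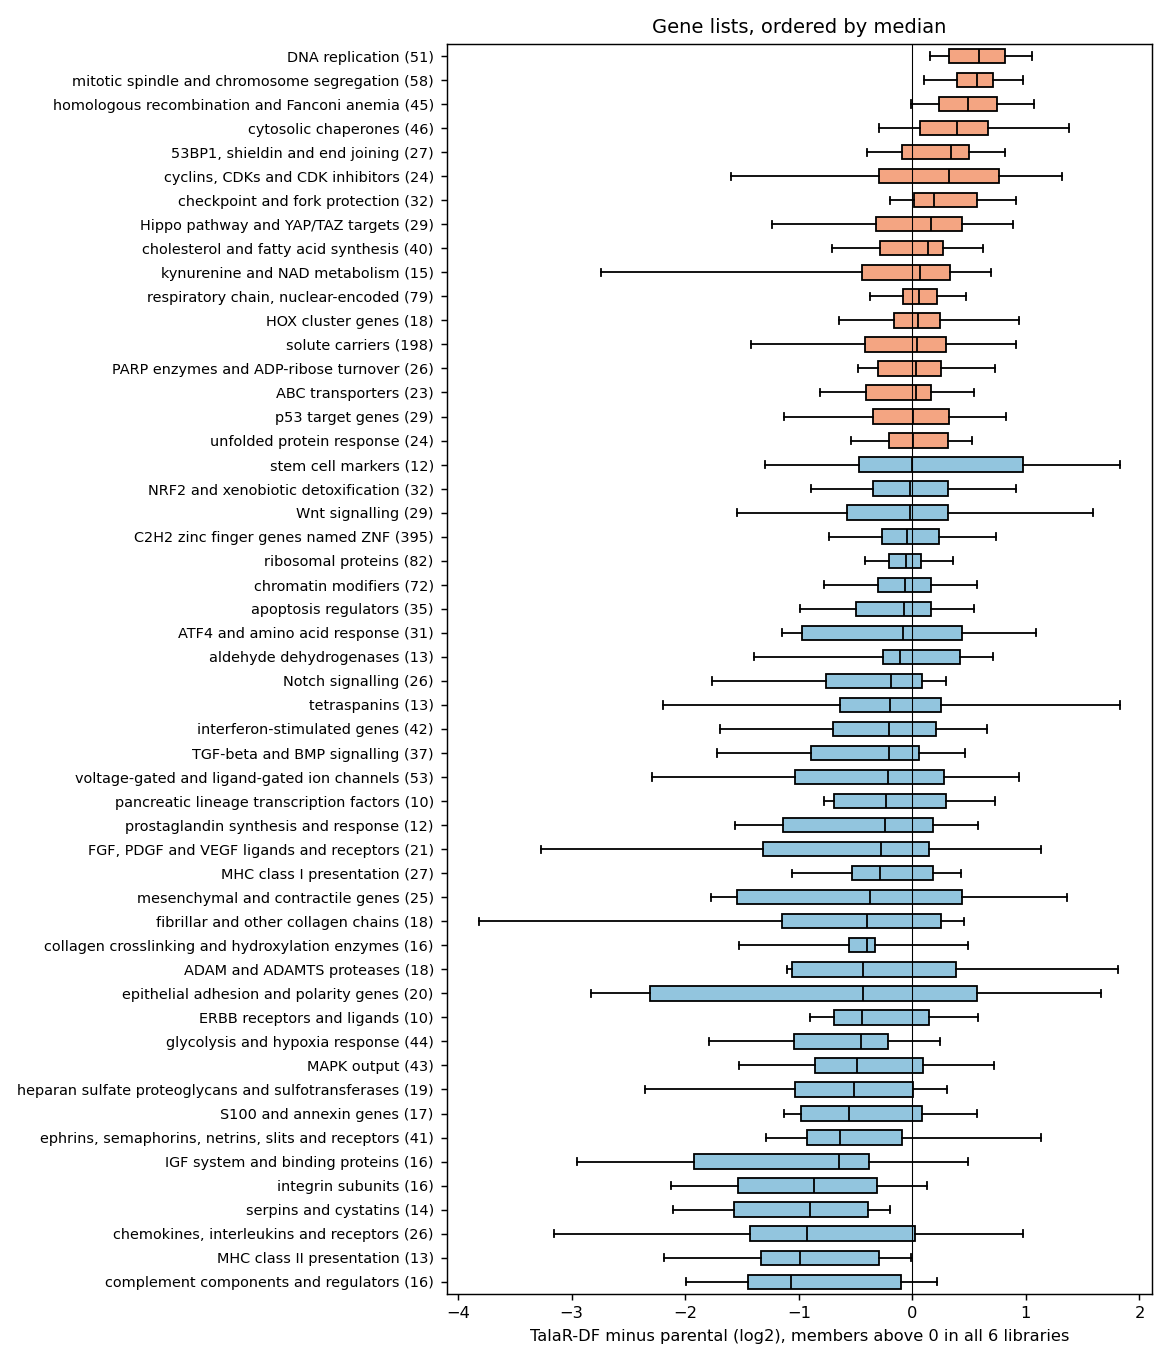
Difference between TalaR-DF and parental cells (log2, horizontal axis) for the members of each gene list that were above 0 in all 6 libraries, with their number in brackets. Boxes span the quartiles with a line at the median, whiskers percentiles 5 to 95. DNA replication, mitosis and recombination lists lie to the right of 0 and matrix, cytokine and complement lists to the left.

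Ribosomal protein, ZNF and chromatin genes held few calls. None of 82 ribosomal protein genes was called by limma at 2-fold (12 higher and 27 lower at an adjusted p under 0.05), with a median of -0.06, and of 419 ZNF genes 9 were higher and 15 lower, and of 72 chromatin modifiers 1 was higher and 3 lower. The one chromatin gene that rose, SMARCA2, an ATPase of SWI/SNF remodelers, went from 2.29, 2.08 and 2.01 log2 CPM to 5.17, 5.02 and 5.26, an 8.13-fold increase (adjusted p = 1.4e-09). HDAC5, KDM5B and TET1 were the 3 lower. Of 31 p53 target genes 4 were lower and 1 higher, 16.1% beside 11.6% of all genes. PHLDA3, a repressor of AKT, fell from 5.17, 5.27 and 5.40 to 1.63, 1.68 and 1.19. Of 36 apoptosis regulators 2 were lower (5.56%), BIRC7, an inhibitor of apoptosis, by 3.20, and CASP1.

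Small differences also ran along the chromosomes. The 9471 genes with a position and a mean over 3 log2 CPM were put in order and cut into 368 blocks of 25 to 28 neighbours. In any parental library no block median was further than 0.054 from the parental mean on the log2 scale. Each parental library enters that mean, so this value describes the spread between replicates only. In TalaR-DF, 7 blocks had a median of -0.5 or less and 11 of 0.5 or more. This layout and the stretches named here were chosen after the values were seen. Chromosome 12 was lowest, with a median of -0.38 over 504 genes and 12.5% of them called lower. From 49558299 to 57782541 (hg38) its 4 blocks, MCRS1 to METTL21B, had medians of -0.59, -0.62, -0.78 and -0.64. In the lowest of them (COPZ1 to PAN2) 24 of 25 genes were lower in TalaR-DF, and the 3 TalaR-DF libraries stood at -0.73, -0.76 and -0.74. The far part of chromosome 16 was higher as a whole, the blocks from 56429133 to 90044960 having medians between 0.32 and 0.64, while the 8 blocks before 30355308 lay between 0.01 and 0.12. On chromosome 10 the block from 118004916 to 123170467 reached 0.65. A single block on chromosome 1 (201483530 to 204494805, CSRP1 to PIK3C2B) was at -0.74, with 23 of 25 genes lower, and one on chromosome 7 (92487025 to 99144108) at -0.64. TalaR-M replicates 1 and 3 had -0.57 and -0.74 in the lowest chromosome 12 block and 0.06 and -0.05 in the chromosome 3 block from 179347709 to 184346275, where TalaR-DF was at 0.54. Some called genes lie in these stretches. ITGA5, KRT7, the integrin subunit ITGA7 and the interferon signal mediator STAT2 are in the low part of chromosome 12, and relative to their block medians they differed by -1.35, -0.64, -1.92 and -0.38. KRT8 and KRT18, which were not called, are there too, and stood 0.58 and 0.56 above their block medians. GINS2 and FANCA are in the high part of chromosome 16 and were 1.47 and 0.75 above their blocks. With each gene set against its block, the median was 0.60 for DNA replication, 0.45 for mitosis, 0.46 for recombination, -0.53 for glycolysis and hypoxia and -0.88 for integrins. Against the blocks, 35 list medians moved by at least the median SE of a member and 25 by less. The median of epithelial adhesion and polarity genes in blocks went from -0.44 to -0.24 and that of S100 and annexin genes from -0.54 to -0.27. The median of keratins went from -0.04 to 0.12, that of ductal carcinoma markers from -0.01 to 0.36, and that of PARP and ADP-ribose genes from 0.09 to -0.03, so that these turned sign. DNA copy number was not measured in these libraries, and its part was not tested.

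**Figure D5:**
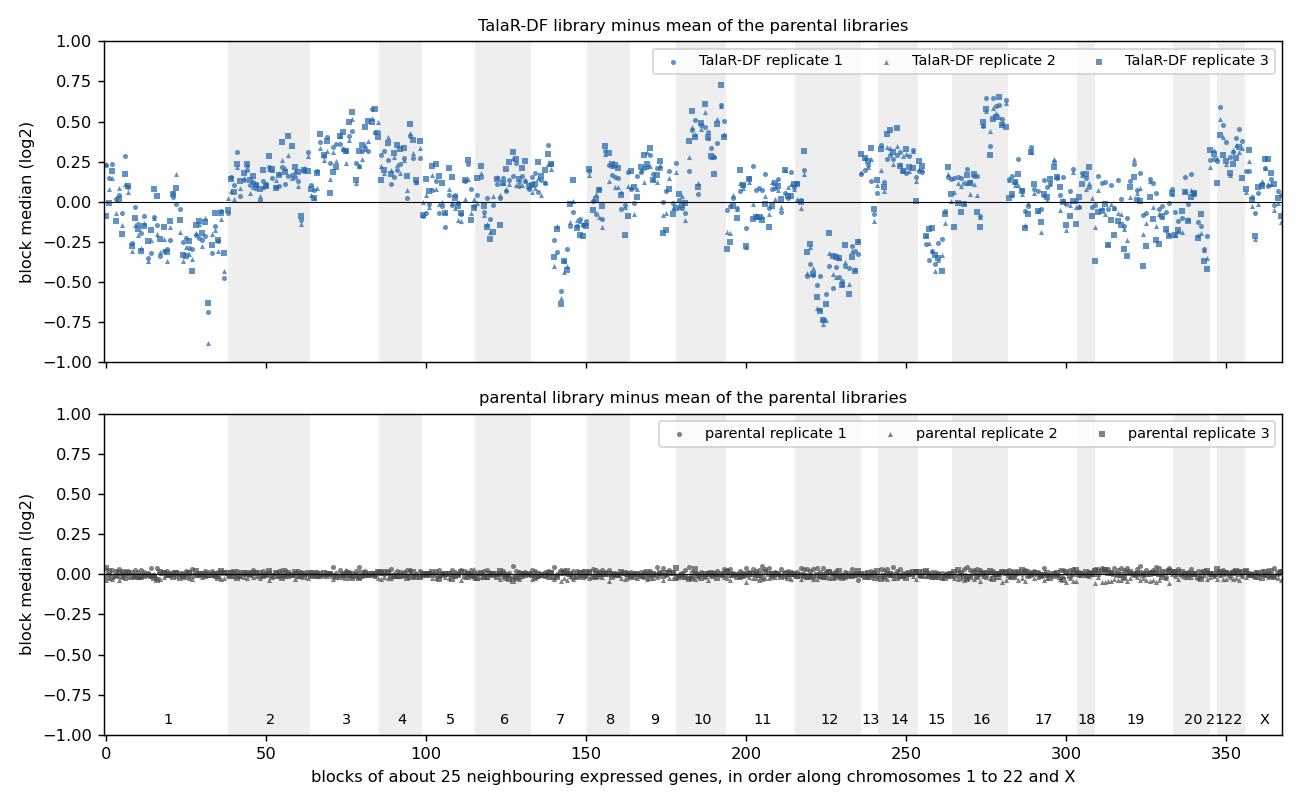
Median difference of each block of neighbouring genes from the mean of the parental libraries (log2, vertical axis), in order along the chromosomes (horizontal axis, grey bands alternate chromosomes), for each TalaR-DF library above and each parental library below. The 3 TalaR-DF libraries step together, low on chromosome 12 and high on the far part of chromosome 16. The parental libraries, which make up the mean, stay within 0.054 of 0.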

How the data were processed

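RNA was harvested from PSN1 cells in triplicate, and stranded poly(A) libraries were sequenced. The authors deposited log2 CPM values of protein-coding genes, with a small prior count and every value under 0 set to 0, read from equal steps in the values. The build was hg38 per the labels, and the aligner, counter and annotation are not given in the sources used here. The deposited table held 9 of the series' 48 samples.

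TalaR-DF was compared with parental cells in limma 3.58.1 (R 4.3.3) with a mean-variance trend, on the 6 libraries of both groups and the 12165 genes above 0 in at least 3 of them. Genes counted as called when the log2 change was 1 or more in size and the p, adjusted after Benjamini and Hochberg, was under 0.05. Where a group was at 0, folds are bounds set at 1 CPM. On simulated data the fit was tested beforehand. The 0 floor hides differences under about 1 CPM.

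Genes were named by rule. The 8 largest increases and decreases were taken among called genes above 0 in all 6 libraries with no overlap between the groups. Also named were the 6 highest genes present in 1 group only, genes the study followed, and list members with the largest called change. IL18, COL3A1, PCNA, MCM2, BRCA1, KRT19, EPCAM, SKA3 and members called in lists beyond those were named after their values were seen. Some genes that these rules name are not reported here. Members and lists were chosen with earlier results of these data known. Gene positions and promoter windows came from RefSeq (GRCh38.p14), matched by symbol. Replicate numbers did not pair the samples: same-numbered deviations correlated at 0.08, 0.15 and -0.10.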

Additional observations from a re-analysis of the deposited data

How the results depend on the processing

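The direction of the whole comparison, more genes lower than higher at 2-fold, held under each alternative tried. The counts depend on how low values and fold sizes are treated. With a pseudocount of 5 CPM, 641 genes were called, 127 higher and 514 lower. With a minimum of 5 CPM, 995 were called, 236 higher and 759 lower. With no fold threshold 8061 were called, 4163 higher and 3898 lower, so that the excess of decreases ended. With a log2 change of at least 2, 389 were called, 70 higher and 319 lower. Leaving out each library in turn gave between 1402 and 1455 called genes, 347 to 352 higher and 1054 to 1103 lower. With the replicate block, 341 were higher and 1076 lower, as without it, and it changed no call among the named genes and lists. The log2 difference of KRT8, close to 0, ranged from -0.072 to 0.028 when libraries were left out in turn, turning positive without TalaR-DF replicate 2 (0.028), TalaR-DF replicate 3 (0.011) or parental replicate 1 (0.014).

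Among the 457 genes named or called in a list, 206 lost their call with a pseudocount of 5 CPM, 50 with all 3 groups in 1 model and 46 with a pseudocount of 1 CPM. With a minimum of 5 CPM, 337 were still tested, each with its call unchanged. The count for recombination genes fell from 5 to 2 with all 3 groups in 1 model and to 3 without parental replicate 2, and the count of lower collagens rose from 7 to 11 with a pseudocount of 1 CPM. With all 3 groups in 1 model, 1219 genes were called, 281 higher and 938 lower, and the count of lower members fell from 7 to 4 for the ATF4 and amino acid response, from 4 to 2 for MHC class I and from 3 to 1 for chromatin modifiers. With TalaR-M replicate 2 left out of that model, 1417 were called. Of the genes named in the text, POLA2, STAT2, SLC3A2, DDIT3, CST7 and TET1 lost their call without TalaR-DF replicate 1, BRCA2, CA9 and DDIT3 without TalaR-DF replicate 2, FANCM, DDIT4, CA9, CREB3L2, SERPINB2 and HSP90AA1 without TalaR-DF replicate 3, DDIT3 and CREB3L2 without parental replicate 1, and RAD54B, FANCM, DDIT3, TEX101 and HSP90AA1 without parental replicate 2. SNAI2 passed with a pseudocount of 1 CPM, and ZEB2 with median scaling or without TalaR-DF replicate 3. The pseudocount setting takes values at the floor as no reads, though the floor stands for at most about 1 CPM. The SNAI2 pass depends on that choice. The cause of the other changes of call was not tested. Setting genes against their block of neighbours was chosen after seeing the data.

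Limits: 3 libraries a group from 1 selected population, 1 CPM as the lowest value seen, and no length in the values, so that levels of different genes cannot be ranked.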

Other observations

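Receptors and ligands of guidance and developmental signalling held further decreases. Of 51 tested ephrins, semaphorins, netrins, slits and their receptors, 13 were lower and 5 higher, with a median of -0.65. EPHA3, an ephrin receptor, fell by 4.22 on the log2 scale, while SEMA3E, a secreted semaphorin, had 0, 0.01 and 0 in parental cells and reached a mean of 3.77 log2 CPM, and SLIT2 rose by 2.32. In Notch signalling 4 of 27 were lower and 1 higher, 18.5% called beside 11.6% of all genes tested, with a median of -0.17. NOTCH3 and its ligand JAG1 fell by 2.32 and 1.80. In Wnt signalling 7 of 36 were lower and 3 higher, FZD1, a receptor, falling by 3.57 and DKK1, an inhibitor, rising by 2.72. Among the 29 Wnt members above 0 in all 6 libraries, 4 were lower and 3 higher, with a median of -0.02. FAT4, a large cadherin upstream of Hippo signalling, rose from 0, 0 and 0.36 to 3.85, 4.62 and 4.11. INHBA, the activin A subunit, fell by 4.06.

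Ion channels had 22 of 76 lower and 6 higher, 36.8% called beside 11.6% of all genes tested, with GRIA1 among the higher. Among the 53 channels above 0 in all 6 libraries, 14 were lower and 2 higher, with a median of -0.21. Solute carriers had 28 of 221 lower and 9 higher, 16.7% called beside the same 11.6%, with a median of 0.01. Of 11 tested pancreatic lineage transcription factors, 2 were lower and 1 higher. HNF4A had 2.99, 2.86 and 3.39 in parental cells and was at 0 in all TalaR-DF and TalaR-M libraries, FOXA2 fell by 2.12, and FOXA1 rose by 1.66. Of 13 tested MAGE and other cancer-testis antigens 5 were lower and 1 higher at 2-fold, and 6 were lower and 6 higher at an adjusted p under 0.05, with a median of 0.21. TEX15 was the 1 higher at 2-fold. Of the 7 members above 0 in all 6 libraries none was called either way, with a median of 0.37. The antigens MAGEA3, MAGEC2, MAGEA6 and MAGEA12, close paralogs in part, were at 0 in all 3 TalaR-DF libraries, with parental means of 3.08, 3.02, 2.89 and 2.00, and TEX101 was the other lower one. In kynurenine and NAD metabolism QPRT fell by 2.74 beside KYNU, and 4 of 17 were lower in all.

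Lower genes had promoter windows with fewer CpG dinucleotides, with a median of 19 over 789 windows against 25 over 263 windows of higher genes and 26 over all 9936. AP-1 letters (TGACTCA) were in 6.21% of the lower, 2.28% of the higher and 2.94% of all windows. These shares are descriptions with no test.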
